A study of Mus musculus with 18 samples.

Results

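The Ly6/uPAR proteins are small cysteine-rich proteins built on the three-finger fold that they share with snake neurotoxins. Most are held on the outer face of the cell membrane by a glycosylphosphatidylinositol (GPI) anchor, while the Slurp proteins lack the anchor and are secreted. Several members, Lynx1 and the Slurp proteins among them, act on nicotinic acetylcholine receptors, and others serve as surface markers of blood cells and their progenitors, or are induced by interferon. The genes examined here were 8 named members of this family: Lypd2, Lypd3, Slurp1, Slurp2, Ly6a, Ly6c1, Ly6d and Ly6e. A gene was measured by the probe set that carries its symbol alone, and 7 of the 8 had 1 such probe set each, among 30102 genes measured in all. Ly6a, which encodes the progenitor marker Sca-1, had no probe set under its own symbol alone and was not analysed here. Lypd2 and Slurp2 had been selected on their values across these same 18 arrays, so those values are given as a description with no test, and the 5 others were tested.

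The samples were lung epithelial cells of adult mice, 8 to 12 weeks old, that carry TCF/Lef:H2B/GFP, a transgene in which binding sites for the TCF/Lef factors of Wnt signalling drive a green fluorescent histone. Dissociated lungs, trachea and bronchi included although the labels name the tissue distal lung, were depleted of cells bearing CD31 or CD45 and enriched for EpCAM. Live EpCAM+ cells were then sorted by fluorescence into a bright group (Wnthigh), a dim group (Wntlow) and a group with none (Wntnegative). All 3 groups carry the reporter and the labels give no treatment for any, and a histone-bound fluorescent protein can outlast the signal that made it. Each group had 6 arrays, each from cells pooled from 3 to 4 animals, and 8 ng of total RNA was amplified for each array. The arrays fell into 2 sets, called runs below, which no label names and which were inferred from the medians and the number of decimals of the deposited values: experiments 2 to 5 (the earlier run, array medians 4.62 to 4.77) and experiments 7 to 9 (the later run, array medians 3.55 to 3.69), with 3 arrays of each group in each run. Values are the deposited log2 values of RMA, and a difference is a log2 difference on that scale. Since values reached 19.93, above the 16 bits of a scanner, differences are not read as ratios of RNA amounts. For each array a background limit was set at the 95th percentile of 1376 odorant and pheromone receptor genes, which gave 4.67 to 4.89 in the earlier run and 3.67 to 4.00 in the later run.

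Pecam1 and Cdh5 of endothelium and Ptprc and Tyrobp of leukocytes were above that limit on 0 of 18 arrays. Over the whole lists, in every group 3 of 9 endothelial and 3 of 10 leukocyte markers were above it on each array of the earlier run, and 2 of each list on each array of the later run. Markers of several of the lung's own epithelial cell types differed between the sorted groups. All 15 markers of ciliated cells were higher in Wnthigh than in Wntnegative cells, all 15 were higher in Wntlow than in Wntnegative cells, and all 15 were higher in Wnthigh than in Wntlow cells. Of 11 goblet and mucous cell markers, 10 were higher in Wntlow than in Wntnegative cells and 11 were lower in Wnthigh than in Wntlow cells. Of 12 markers of alveolar type II cells, 11 were lower in Wnthigh than in Wntnegative cells. Only 5 were lower in Wntlow than in Wntnegative cells, and 5 in Wnthigh than in Wntlow cells. No basal cell marker of 7 passed the limma adjusted p threshold of 0.05 in Wnthigh against Wntnegative cells. In Wntlow cells 3 of them were higher than in Wntnegative and 3 higher than in Wnthigh cells. Beside these, 40.3% of all genes passed either way in Wnthigh and 25.5% in Wntlow against Wntnegative cells, and 27.9% in Wnthigh against Wntlow cells. In sorted bulk RNA of this kind, fewer cells of a type and less RNA per cell cannot be told apart.

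Lypd2, a GPI-anchored family member whose function is little known, was highest in Wntlow cells, next in Wnthigh cells and lowest in Wntnegative cells in both runs. In the earlier run Lypd2 stood at 13.90, 14.35 and 13.82 in Wnthigh cells, 15.89, 14.86 and 15.99 in Wntlow cells and 6.95, 7.08 and 7.55 in Wntnegative cells. In the later run it stood at 13.40, 13.50 and 13.50 in Wnthigh cells, 18.05, 18.17 and 17.11 in Wntlow cells and 6.15, 5.44 and 6.46 in Wntnegative cells. The groups did not overlap in either run, and every array was above its background limit. The Wntlow arrays stood higher and the Wntnegative arrays lower in the later run, while the Wnthigh arrays of both runs lay between 13.40 and 14.35.

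The Lypd2 difference between Wntlow and Wntnegative cells was 10.07, with 8.38 in the earlier run and 11.76 in the later one, and it was the 7th highest of the 30102 genes. Between Wnthigh and Wntnegative cells the difference was 7.14, with 6.83 and 7.45 in the earlier and later runs. Wnthigh minus Wntlow came to -2.93, with -1.55 in the earlier run and -4.31 in the later one. Over all genes, 2.05% had Wntlow arrays above those of both other groups without overlap in both runs, which is given for scale only, since Lypd2 was picked for its pattern. Likewise for scale, the shares that did not overlap in both runs were 12.9% higher and 17.8% lower in Wnthigh than in Wntnegative cells, 8.99% higher and 6.48% lower in Wntlow than in Wntnegative cells, and 8.04% higher and 10.3% lower in Wnthigh than in Wntlow cells.

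**Figure D1:**
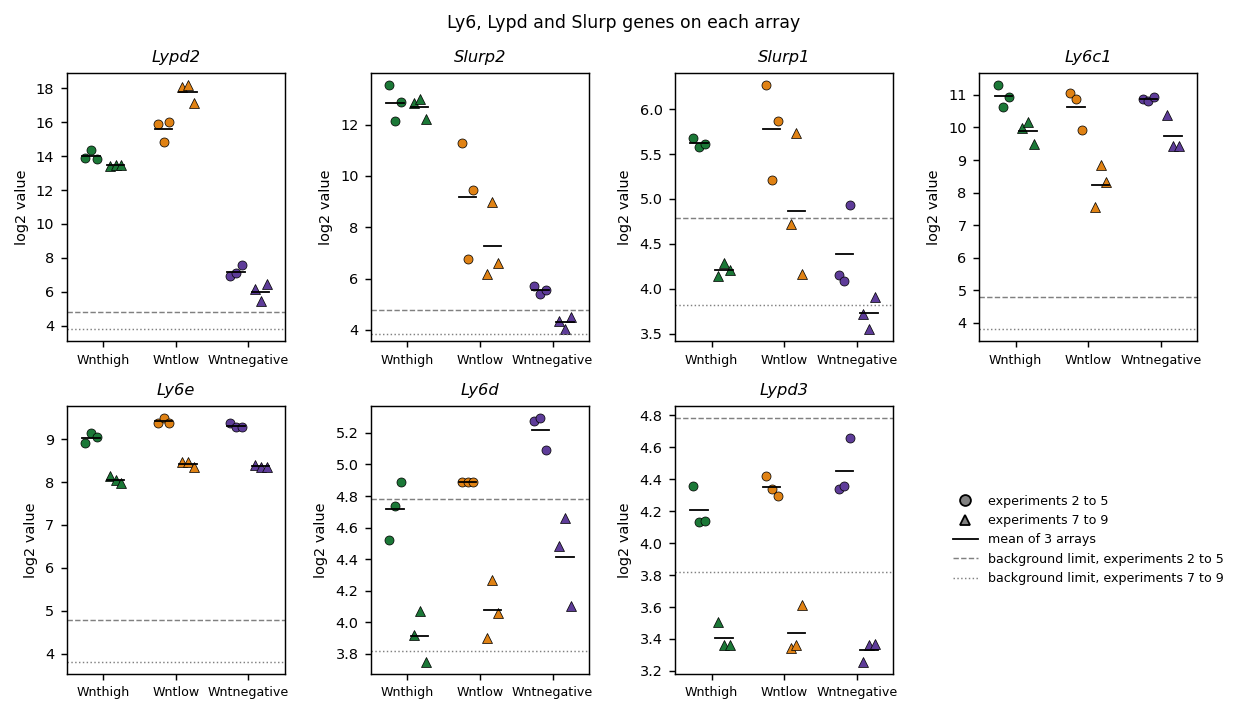
Deposited log2 value (vertical axis) of the 7 measured genes on each of the 18 arrays, by group, with circles for the earlier and triangles for the later run, bars for the mean of 3 arrays and lines for the average background limit of each run. Lypd2 is highest in Wntlow cells and Slurp2 in Wnthigh cells, and Lypd3 lies under the limit on all 18 arrays.

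Slurp2, a secreted ligand of acetylcholine receptors best known from stratified epithelia such as skin and oesophagus, ran in another order. Its earlier run values were 13.52, 12.13 and 12.87 in Wnthigh cells, 11.29, 6.77 and 9.44 in Wntlow cells and 5.72, 5.39 and 5.54 in Wntnegative cells. Its later run values were 12.85, 13.00 and 12.21 in Wnthigh cells, 6.16, 9.00 and 6.62 in Wntlow cells and 4.36, 4.04 and 4.49 in Wntnegative cells. Slurp2 was thus highest in Wnthigh, intermediate in Wntlow and lowest in Wntnegative cells in both runs, without overlap, and the Wntlow arrays were spread far more widely than the others. The earlier run's SD was 0.70 in Wnthigh, 2.27 in Wntlow and 0.17 in Wntnegative cells (n = 3 each).

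The Slurp2 difference was 7.84 between Wnthigh and Wntnegative cells (7.29 and 8.39 in the earlier and later runs) and 3.29 between Wntlow and Wntnegative cells (3.62 and 2.96). Wnthigh minus Wntlow was 4.55 (3.67 and 5.43), the 2nd highest of all genes. Without the Wntlow array of experiment 4, the lowest Wntlow array of the earlier run, the last 2 differences were 3.72 and 4.12. No p-value is given because Slurp2 was picked for this pattern.

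Across the Wntlow arrays, the order of Slurp2 was that of the mean level of the 15 ciliated markers within each run. That mean was 13.09, 9.33 and 11.91 in experiments 3, 4 and 5 and 8.61, 10.59 and 9.39 in experiments 7, 8 and 9. Over the groups it lay at 13.47 to 14.32 in Wnthigh cells, 8.61 to 13.09 in Wntlow cells and 4.59 to 7.14 in Wntnegative cells. By group, Lypd2 stood highest where the goblet and club lists did. The mean of 11 goblet markers lay at 7.02 to 9.99 in Wnthigh, 10.85 to 12.47 in Wntlow and 4.30 to 5.65 in Wntnegative cells, and that of 11 club markers at 13.45 to 15.02 in Wnthigh, 15.25 to 16.41 in Wntlow and 11.98 to 12.88 in Wntnegative cells. Among the Wntlow arrays the order of Lypd2 matched that of the club mean in the earlier run and not in the later one, and matched the goblet mean in neither. Slurp2 also matched the goblet order in the earlier run and not in the later one. The part of these cell types in the values of Lypd2 and Slurp2 was not tested.

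**Figure D2:**
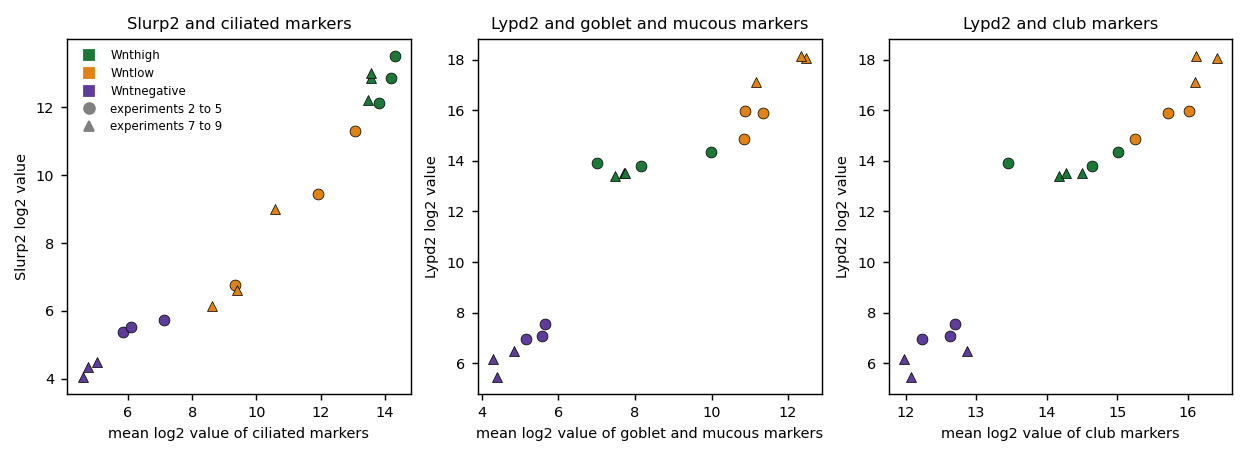
Value of Slurp2 against the mean of the ciliated markers, and of Lypd2 against those of the goblet and the club markers, on each array (both axes deposited log2), with groups by colour and runs by symbol. The Wntlow arrays of Slurp2 lie between the Wnthigh and the Wntnegative arrays and run along the ciliated mean.

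The genes most like each of them, by Pearson's r over the 18 arrays after each run was centred, were looked up among 11713 genes. Nearest to Lypd2 were Cp, the copper-carrying plasma protein ceruloplasmin (r = 0.993), the glutathione transferase gene Gstm2 (0.992) and the scaffold gene Iqgap2 (0.989). Nearest to Slurp2 were Ccdc173 (0.996), Cfap77 (0.996), named for cilia and flagella, and Oscp1 (0.995). Lypd2 and Slurp2 correlated with each other at 0.579. The 18 points share 3 group levels, so these values describe the arrays and carry no p-value.

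Slurp1, the secreted relative of Slurp2 whose loss in humans causes the palmoplantar keratoderma Mal de Meleda, lay far nearer the background. Its values were 5.68, 5.58 and 5.61 in the earlier run and 4.14, 4.28 and 4.21 in the later one in Wnthigh cells. Wntlow cells had 6.26, 5.21 and 5.87 in the earlier run and 4.72, 5.73 and 4.16 in the later one, and Wntnegative cells 4.15, 4.09 and 4.93, then 3.71, 3.55 and 3.91. Wnthigh and Wntlow arrays overlapped, and both stood above the Wntnegative arrays of their run on every array. All 12 Wnthigh and Wntlow arrays were above their background limit, against 1 of 6 Wntnegative arrays.

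Slurp1 was higher in Wnthigh than in Wntnegative cells by 0.86 ± 0.25 (SE, limma adjusted p = 0.00966) and higher in Wntlow than in Wntnegative cells by 1.27 ± 0.25 (adjusted p = 0.00108). With values under the limit set to the limit, these differences were 0.53 and 0.94. Wnthigh minus Wntlow was -0.41 and did not pass (adjusted p = 0.273). Neither call held in the later run taken alone, where the differences were 0.49 (adjusted p = 0.403) and 1.15 (adjusted p = 0.0794). Of all genes, 15.7% were higher in Wnthigh and 12.3% higher in Wntlow than in Wntnegative cells past the same threshold of 0.05. Slurp1 and Lypd2 correlated at 0.823 over the 18 run-centred arrays.

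Ly6d, a surface protein of keratinocytes and of lymphoid progenitors bound for the B lineage, ran the other way at a low level. It stood at 4.52, 4.73 and 4.89 and then 3.92, 4.07 and 3.75 in Wnthigh cells. In Wntlow cells all 3 earlier run arrays held the same value, 4.89, and the later run held 3.90, 4.27 and 4.06. Wntnegative cells had 5.28, 5.29 and 5.09, then 4.49, 4.66 and 4.10. The Wntnegative arrays were the highest of each run apart from experiment 9, which overlapped the Wntlow arrays, and 4, 6 and 6 of the 6 arrays of the Wnthigh, Wntlow and Wntnegative groups were above the limit.

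Ly6d was lower in Wnthigh than in Wntnegative cells by a difference of -0.50 ± 0.092 (SE, limma adjusted p = 0.000265), with -0.50 in each run. It was lower in Wntlow than in Wntnegative cells by a difference of -0.34 ± 0.092 (adjusted p = 0.0123), and Wnthigh minus Wntlow was -0.17 (adjusted p = 0.215). The Wntlow call did not hold without experiment 4 (adjusted p = 0.0504) or experiment 7 (0.0697) or in either run alone (0.0823 in the earlier run and 0.257 in the later one), and the Wnthigh call did not hold in the later run alone (0.0621).

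Ly6e, a widely expressed and interferon-inducible member that acts on virus entry, differed by small amounts against an SD of 0.03 to 0.11 within a group and run. Its values were 8.91, 9.13 and 9.05, then 8.13, 8.05 and 7.98 in Wnthigh cells. They were 9.38, 9.49 and 9.37, then 8.46, 8.47 and 8.35 in Wntlow cells, and 9.37, 9.28 and 9.28, then 8.40, 8.35 and 8.35 in Wntnegative cells. All Wnthigh arrays lay below all arrays of the other groups in their run, while Wntlow and Wntnegative arrays overlapped. Exactly the same value, 9.28, was held by 2 of 9 earlier run arrays, and 8.35 by 3 of 9 later run arrays. Such repeats narrow the SD and the SE.

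Ly6e was lower in Wnthigh than in Wntnegative cells by a difference of -0.30 ± 0.041 (SE, limma adjusted p = 1.91e-05), with -0.28 in the earlier run and -0.31 in the later one. It was lower in Wnthigh than in Wntlow cells by a difference of -0.38 ± 0.041 (adjusted p = 7.01e-06), with -0.38 and -0.37 in the runs. Wntlow minus Wntnegative was 0.08 and did not pass (adjusted p = 0.185). Lower in Wnthigh cells past the threshold were 24.6% of all genes against Wntnegative and 16.4% against Wntlow cells, and 13.2% were lower in Wntlow than in Wntnegative cells.

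Ly6c1, a surface marker of monocytes, lymphocytes and endothelium, was the one member that passed only where Wntlow cells were compared. It stood at 11.29, 10.62 and 10.95 in the earlier run and 10.00, 10.15 and 9.49 in the later one in Wnthigh cells. Wntlow cells had 11.05, 10.88 and 9.94 in the earlier run and 7.56, 8.84 and 8.34 in the later one, and Wntnegative cells 10.88, 10.80 and 10.92, then 10.39, 9.43 and 9.43. The 3 Wntlow arrays were the lowest of the later run, and all 3 groups overlapped in the earlier run.

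Ly6c1 was lower in Wntlow than in Wntnegative cells by a difference of -0.87 ± 0.30 (SE, limma adjusted p = 0.0448), with -0.24 in the earlier run and -1.51 in the later one. It was higher in Wnthigh than in Wntlow cells by 0.98 ± 0.30 (adjusted p = 0.0223), with 0.33 and 1.63 in the runs, and Wnthigh minus Wntnegative was 0.11 (adjusted p = 0.811). Both calls were lost with the experiment number as a replicate block (adjusted p = 0.0863 and 0.0617) and in the earlier run alone (adjusted p = 0.681 and 0.564). Without experiment 7 the differences were -0.48 (adjusted p = 0.186) and 0.69 (adjusted p = 0.0547). Pecam1, Cdh5, Ptprc and Tyrobp were under the limit on every array. The mean of the 9 endothelial markers was highest in Wntlow cells, without overlap: it lay at 4.38 to 4.97 in Wnthigh, 5.17 to 5.40 in Wntlow and 4.93 to 4.97 in Wntnegative cells in the earlier run, and at 3.56 to 3.68, 4.16 to 4.31 and 3.90 to 3.98 in the same groups in the later run. The mean of the 10 leukocyte markers was highest in Wntnegative cells, at 4.47 to 4.65 in Wnthigh, 4.46 to 4.65 in Wntlow and 4.68 to 4.82 in Wntnegative cells in the earlier run, and at 3.55 to 3.58 in Wnthigh and 3.68 to 3.75 in Wntnegative cells in the later run, with the Wntlow arrays between them. In Wntlow against Wntnegative cells, 1 of the 9 endothelial markers was higher, 1 was lower and 7 did not pass, with a median difference of -0.02. All 10 leukocyte markers failed to pass in that comparison. The part of endothelial cells and leukocytes in the Ly6c1 values was not tested.

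Ly6c2, a near-identical copy of Ly6c1 whose transcripts its probes could share, was also lowest in Wntlow cells in the later run. Its values were 14.10, 13.67 and 13.92, then 13.18, 13.38 and 13.04 in Wnthigh cells. They were 14.10, 14.52 and 12.81, then 9.67, 11.86 and 11.67 in Wntlow cells, and 14.75, 14.41 and 14.64, then 14.37, 13.62 and 13.37 in Wntnegative cells. Ly6c2 was lower in Wntlow than in Wntnegative cells by a difference of -1.75 ± 0.44 (SE, limma adjusted p = 0.00761), with -0.79 in the earlier run and -2.72 in the later one. These 2 groups overlapped in the earlier run. Unlike for Ly6c1, Wnthigh minus Wntlow did not pass, at 1.11 (adjusted p = 0.0787), with 0.09 and 2.13 in the runs. Because of the likeness of both genes, their values cannot be taken as separate measurements.

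A promoter sequence was given for 2 of the members, Lypd3 and Ly6c1, and that of Ly6c1 is shown as the one above background, since the sort was made on a TCF/Lef reporter. It is the RefSeq window of 300 bases on GRCm38.p6, chr15:75048788-75049087, minus strand, written 5′ to 3′.
Ly6c1: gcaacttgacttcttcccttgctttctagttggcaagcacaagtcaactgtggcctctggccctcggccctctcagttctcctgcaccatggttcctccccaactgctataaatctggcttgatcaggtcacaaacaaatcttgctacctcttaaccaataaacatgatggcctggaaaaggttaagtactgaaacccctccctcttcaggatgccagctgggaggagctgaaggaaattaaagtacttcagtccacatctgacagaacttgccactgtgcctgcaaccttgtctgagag
The TCF/Lef core motifs CTTTGAA and CTTTGAT were searched on both strands, and neither is present in this window, in a second Ly6c1 window or in that of Lypd3. Over all windows of this length, 2842 of 32851 (8.65%) hold one.

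Lypd3, also called C4.4A, is a GPI-anchored protein of stratified epithelia. It was under the background limit on all 18 arrays, with values from 3.26 to 4.66, and passed in none of the comparisons (limma adjusted p = 0.430 for Wnthigh against Wntnegative, 0.977 for Wntlow against Wntnegative and 0.500 for Wnthigh against Wntlow). A difference was not detectable at this signal.

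In number, of the 5 members tested, 1 was higher and 2 were lower in Wnthigh than in Wntnegative cells, 1 was higher and 2 were lower in Wntlow than in Wntnegative cells, and 1 was higher and 1 lower in Wnthigh than in Wntlow cells. Over all 30102 genes the shares past the threshold in either direction were 40.3% for Wnthigh against Wntnegative, 25.5% for Wntlow against Wntnegative and 27.9% for Wnthigh against Wntlow. With 5 genes, the counts are too small to be set apart from these shares. These comparisons share their groups and are not independent of each other.

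**Figure D3:**
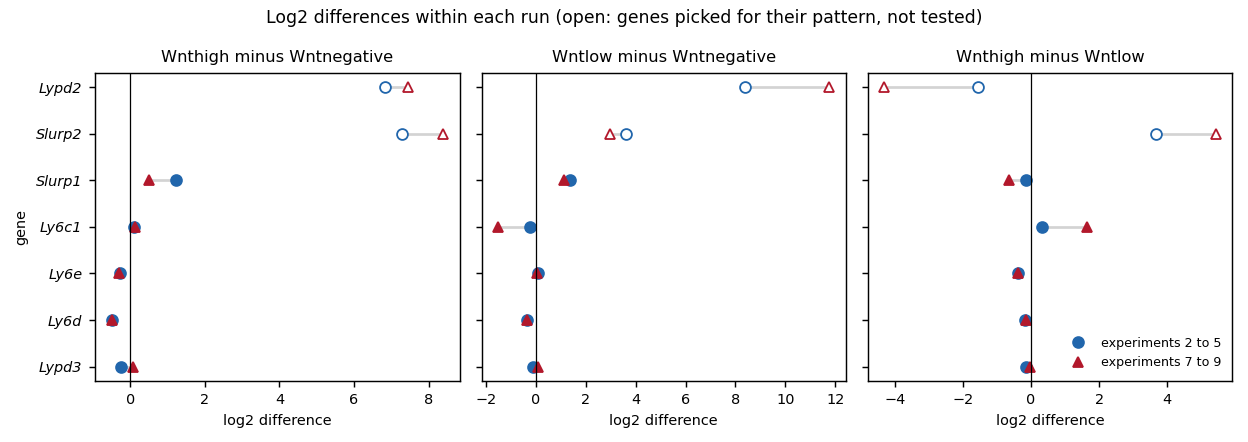
Log2 difference (horizontal axis) of the earlier run, as circles, beside that of the later run, as triangles, for each measured gene in each of the 3 comparisons, with open symbols for the picked genes. Lypd2 and Slurp2 differ between groups by over 1 unit in both runs, Ly6e by under 1 unit in both, and the Ly6c1 differences of Wntlow cells are larger in the later run.

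Apart from Lypd3 on chromosome 7, the measured members lie in 1 gene cluster on chromosome 15, in the order Slurp1, Lypd2, Slurp2, Lynx1, Ly6d, Ly6g6g, Ly6k, Gml, Gml2, Cyp11b1, Cyp11b2, Ly6m, Ly6e, Ly6i and Ly6c1. Of its 9 other measured protein-coding genes, Gml, Gml2 and the steroid hydroxylase genes Cyp11b1 and Cyp11b2 were under the background limit on every array. Members of the cluster did not share a direction: Lypd2 and Slurp2 stood several units higher in Wnthigh than in Wntnegative cells, and Ly6d and Ly6e were lower.

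Lynx1, a GPI-anchored brake on nicotinic receptors in brain, lies beside Slurp2, and in human a read-through transcript joins the pair. Lynx1 had 9.50, 9.54 and 9.54, then 8.10, 8.31 and 7.83 in Wnthigh cells. It had 8.37, 8.04 and 8.23, then 7.06, 7.21 and 6.38 in Wntlow cells, and 7.08, 7.70 and 7.21, then 6.36, 6.07 and 6.05 in Wntnegative cells. The groups did not overlap in either run and stood in the order of Slurp2, over a smaller range. Lynx1 was higher in Wnthigh than in Wntnegative cells by 2.06 ± 0.14 (SE, limma adjusted p = 1.03e-08), higher in Wntlow than in Wntnegative cells by 0.80 (adjusted p = 4.56e-04) and higher in Wnthigh than in Wntlow cells by 1.25 (adjusted p = 7.42e-06). Whether probes of both genes read a joint transcript was not tested.

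**Figure D4:**
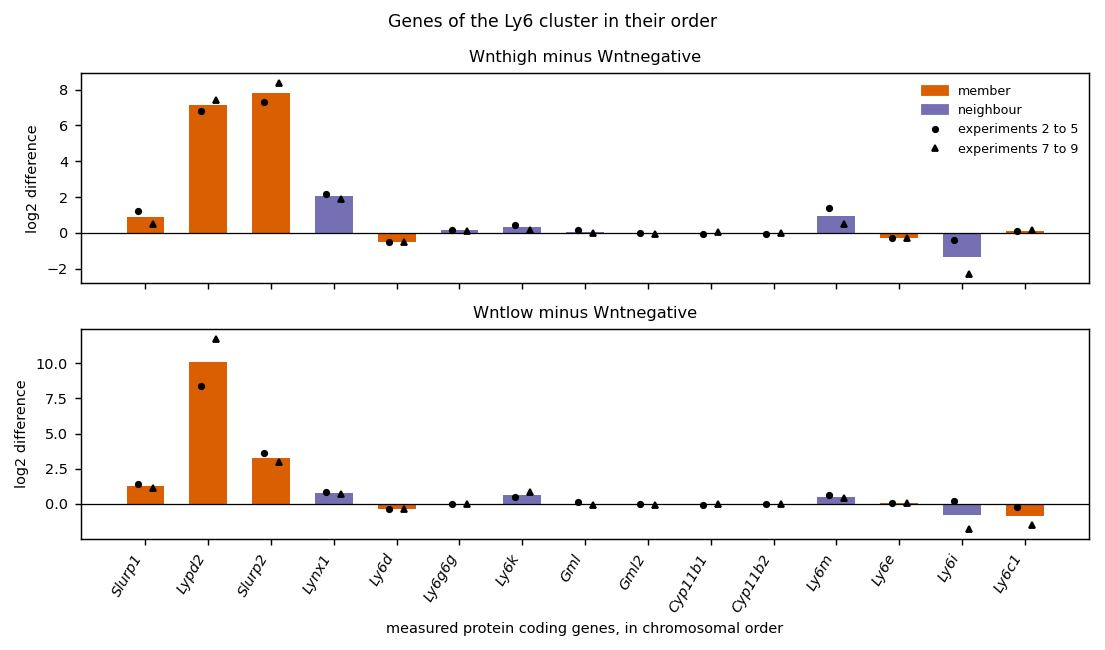
Log2 differences of the measured genes of the chromosome 15 cluster in their order along the chromosome (horizontal axis, equal spacing), for Wnthigh and for Wntlow against Wntnegative cells, with bars for both runs together and points for each run. Slurp1, Lypd2, Slurp2 and Lynx1 stand above 0 at one end, and Ly6d and Ly6e lie below 0 in Wnthigh cells. The Ly6i bar of -1.34 did not pass (limma adjusted p = 0.108), with -0.39 in the earlier run and -2.29 in the later one, where the Wntnegative array of experiment 7 stood at 12.46.

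Of 45 other measured genes of the family, 23 were above the limit on 0 arrays and 11 on all 18. In Wnthigh against Wntnegative cells 6 were higher and 7 lower, in Wntlow against Wntnegative cells 7 were higher and 3 lower, and in Wnthigh against Wntlow cells 2 were higher and 6 lower. Their median differences were -0.04, -0.04 and 0.00, beside -0.05, -0.03 and -0.01 over all genes. Past the threshold, in the same order, 15.7%, 12.3% and 11.4% of all genes were higher and 24.6%, 13.2% and 16.4% lower. The family counts include genes under the limit on all 18 arrays, such as Lypd1 and Lypd11. Cd59a, which blocks the complement membrane attack complex, was lower in Wnthigh than in Wntnegative cells by a difference of -3.22 ± 0.32 (SE, limma adjusted p = 4.87e-07) and lower in Wntlow than in Wntnegative cells by a difference of -1.86 (adjusted p = 4.02e-04). Ly6g6c, of the major histocompatibility region, was higher than in Wntnegative cells by 1.07 in Wnthigh (adjusted p = 5.33e-04) and by 1.60 in Wntlow cells (adjusted p = 4.98e-05). Lypd6, named after its values were seen, was higher in Wntlow than in Wntnegative cells by 1.55 (adjusted p = 2.87e-05). Its Wnthigh minus Wntlow difference was -1.28, with -0.83 in the earlier run, where the arrays overlapped, and -1.73 in the later one. Lypd2 was also higher in Wntlow than in Wnthigh cells, and Lypd6 was 1 of the 6 other family genes that passed in that direction.

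**Figure D5:**
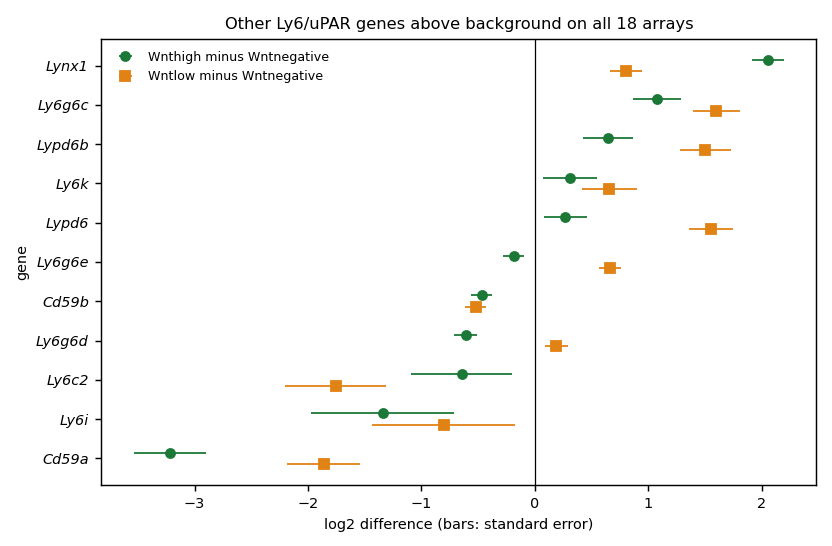
Log2 differences (horizontal axis, bars are the SE) of Wnthigh and of Wntlow against Wntnegative cells for the 11 other family genes above the limit on all 18 arrays, a choice made from their values. Lynx1 has the highest value for Wnthigh cells and Cd59a the lowest in both comparisons.

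Genes of the receptors, the anchor and the partners of these proteins were read next. In either direction, 40.3% of all genes passed in Wnthigh and 25.5% in Wntlow against Wntnegative cells, and 27.9% in Wnthigh against Wntlow cells. Of 16 nicotinic receptor subunit genes, 1 was higher and 1 lower in each comparison. Chrna10 was higher in Wnthigh than in Wntnegative cells by 2.42 (limma adjusted p = 7.04e-08) and higher in Wntlow than in Wntnegative cells by 0.65 (adjusted p = 0.0251). That is the order in which Slurp2 and all 15 ciliated markers stood. The Wntlow and Wntnegative arrays of Chrna10 overlapped in the earlier run, and 5 of 6 and 4 of 6 were above the limit over both runs. Chrnb1 was lower in Wnthigh than in Wntnegative cells by a difference of -2.61 (adjusted p = 3.77e-05) and lower in Wntlow than in Wntnegative cells by a difference of -2.58 (adjusted p = 1.46e-04). Of 28 genes that make, attach or remodel the GPI anchor, 9 were higher and 8 lower in Wnthigh and 6 higher and 5 lower in Wntlow than in Wntnegative cells, and 4 were higher and 5 lower in Wnthigh than in Wntlow cells. Pgap1, which trims the lipid of the new anchor, was among the lower ones in Wnthigh cells (-1.89, adjusted p = 3.59e-07). Pigf was higher than in Wntnegative cells by 1.08 in Wnthigh (adjusted p = 1.17e-04) and by 1.33 in Wntlow cells (adjusted p = 5.94e-05). The median differences of the anchor genes were 0.10, 0.01 and -0.04 in the order of their counts, beside -0.05, -0.03 and -0.01 over all genes.

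Of 9 partners of Lypd3 and of its relative Plaur, 2 were higher and 1 lower in Wnthigh and 3 higher and 1 lower in Wntlow than in Wntnegative cells. In either direction, 40.3% and 25.5% of all genes passed in these comparisons. Agr2 and Agr3, secretory-pathway disulfide isomerases reported to bind the human form of Lypd3, differed in their order. Agr2 was also 1 of the 11 goblet and mucous cell markers counted above, and Lypd3 itself was under the limit on all 18 arrays. Agr3 was higher in Wnthigh than in Wntnegative cells by 7.11 and higher in Wntlow than in Wntnegative cells by 3.95 as measured (limma adjusted p = 6.66e-09 and 1.35e-05), with 2 of 6 Wntnegative arrays above the limit. With values under the limit set to it, which was not tested, Agr3 was higher by at least 6.81 in Wnthigh and by at least 3.65 in Wntlow cells. Agr2 was under the limit on all Wntnegative arrays, and its measured differences from them were 1.17 in Wnthigh and 4.05 in Wntlow cells (adjusted p = 0.0412 and 7.96e-06). With those values set to the limit, also untested, Agr2 was higher by at least 0.78 in Wnthigh and by at least 3.66 in Wntlow cells.

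Genes of 2 other settings in which the family is known were read beside the members. Of 17 interferon-stimulated genes, 9 were higher and 4 lower in Wnthigh than in Wntnegative cells, and 11 were higher and 2 lower in Wntlow than in Wntnegative cells, with median differences of 0.31 and 0.49. Of all genes, 15.7% were higher and 24.6% lower in Wnthigh than in Wntnegative cells, and 12.3% and 13.2% in Wntlow cells. The medians over all genes were -0.05 and -0.03. Between Wnthigh and Wntlow cells, 5 interferon-stimulated genes were higher and 5 lower, with a median of -0.03. Usp18, which removes the interferon-induced modifier ISG15, was higher in Wnthigh than in Wntnegative cells by 8.27 (limma adjusted p = 1.64e-08) and Oas1a, an antiviral enzyme, was higher in Wntlow than in Wntnegative cells by 2.13 (adjusted p = 4.17e-05). Ly6e, itself interferon-inducible, was lower in Wnthigh than in Wntnegative cells. Of 17 genes of stratified epithelium, 4 were higher and 1 lower in Wnthigh and 3 higher and 1 lower in Wntlow than in Wntnegative cells. Their median differences were 0.01 and 0.04. In either direction, 40.3% and 25.5% of all genes passed in these comparisons. Dmkn, a secreted epidermal protein, was higher in Wnthigh than in Wntnegative cells by 6.89 (adjusted p = 2.30e-08), and Tgm1, which cross-links the cornified envelope, was lower by a difference of -1.22 (adjusted p = 4.40e-04).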

How the data were processed

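The deposited table holds 18 arrays and 72688 probe sets as log2 values, which the authors obtained with RMA per the submitters' processing notes. Software, library files and build: not given in the sources used here. Depth has no meaning for arrays, and their number limits the precision. Among the 65770 probe sets other than controls, 30439 carried 1 platform symbol, 2146 had several and 33185 had none; 827 symbols were brought up to date through gene identifiers. The probe set with the highest mean stood for each of the 252 genes with several, which left 30102 genes, 19041 of them protein coding. Many genes repeated 1 value on several arrays of a run (55.5% in the earlier, 68.8% in the later run), which narrows their spread.

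Differences were tested with limma 3.58.1 in R 4.3.3 (lmFit and eBayes, two-sided) in 1 fit of all arrays with group and run as terms and no filter on dim genes. The Benjamini-Hochberg adjustment ran over 30102 genes, with a threshold of 0.05, and the code was tested on simulated data. Replicates are pools of separate experiments. Arrays of different groups share an experiment number in the labels, which pairs them. Deviations from the group means, which still hold the offset between runs, correlated between arrays of 1 number at 0.487 to 0.802 in 16 of 16 pairs. With the run removed, the range was -0.146 to 0.409, with 8 of 16 above 0.1. Arrays of different numbers were not compared, so these ranges do not show how strongly the number ties arrays together.

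The members, the gene lists and the rules were chosen with earlier results of these data known. Named genes are the members, their chromosomal neighbours, the 3 genes most like each member, and up to 4 genes per pathway list with the largest differences past the threshold and above the background limit. Sequences and gene order are from RefSeq GRCm38.p6.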

Additional observations from a re-analysis of the deposited data

Results flagged for a closer look

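An array that stands apart within its group, once run means were removed, was found for 2 of the 21 combinations of gene and group. The nominal rate of the rule is about 1 in 20, for independent values of 1 normal distribution. Arrays of 2 runs with repeated values do not meet that, so the rate is no measure of chance here. Ly6c1 was 10.39 in the Wntnegative array of experiment 7, while the other later run arrays of that group both held 9.43. The neighbouring Ly6i was likewise high on that array, at 12.46, against 7.63 and 8.10 in the other later run Wntnegative arrays. Lypd3 was 4.66 in the Wntnegative array of experiment 5, which is still under the background limit of that array.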

How the results depend on the processing

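Of 15 comparisons of tested members, 8 passed the threshold, and none changed direction while called in the settings run. With no run term the counts of genes past the threshold were 2820 for Wnthigh against Wntnegative, 1059 for Wntlow against Wntnegative and 1349 for Wnthigh against Wntlow, and all 8 member calls were lost, since the offset between runs then counts as spread. Experiments 7 to 9 alone gave 7906 for Wnthigh against Wntnegative and 4472 for Wntlow against Wntnegative, and experiments 2 to 5 alone gave 2486 for Wntlow against Wntnegative and 3288 for Wnthigh against Wntlow, each with 9 arrays in the fit. With the experiment number as a replicate block the counts were 11530, 7995 and 8133, and among the members only the Ly6c1 calls changed. Leaving out each experiment gave 10727 to 11587, 6051 to 7650 and 7174 to 8576 genes.

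The Ly6c1 call of Wntlow against Wntnegative was lost in 9 of 20 settings and that of Wnthigh against Wntlow in 8. The Ly6d call of Wntlow against Wntnegative was lost in 5. The Slurp1 calls and the Ly6d call of Wnthigh against Wntnegative were lost in 2 each, and those of Ly6e only with no run term. The Lypd2 difference between Wntlow and Wntnegative cells was 9.51 and that between Wnthigh and Wntlow cells -2.37 after quantile normalization over all arrays; the cause was not tested. Without experiment 4 they were 10.53 and -3.42, and without experiment 8 the first was 9.54. The omission of the Wntlow array of experiment 4 was chosen after seeing the data. A filter on dim genes, which kept 15775 genes, left out Lypd3. Signal near the background limits what can be read for Lypd3, Ly6d and Slurp1.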

Other observations

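The genes nearest to the tested members over the 18 run-centred arrays were C8g (r = 0.968), Slc5a8 (0.959) and Ppie (0.946) for Slurp1, Efhd2 (0.963), Eef1b2 (0.954) and Srp72 (0.953) for Ly6e, Crk (0.909), S1pr2 (0.881) and Cdh24 (0.877) for Ly6d, and Cfap97 (0.921), Ywhah (0.920) and Gna13 (0.914) for Ly6c1. These values describe arrays that share 3 group levels.

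Other family genes were near the background. Ly6m was above the limit on 5 of 6 Wnthigh, 3 of 6 Wntlow and 0 of 6 Wntnegative arrays, and passed against Wntnegative cells in Wnthigh cells (limma adjusted p = 2.00e-04) and in Wntlow cells (adjusted p = 0.0314). With values under an array's limit set to that limit, Ly6m differed from Wntnegative cells by 0.30 in Wnthigh cells and by 0.0020 in Wntlow cells. The limits differ between arrays, and some Wnthigh and Wntlow arrays also lay under theirs, so neither value is a bound. These set values were not tested. Ifit1, an interferon-stimulated gene that was under the limit on all Wntnegative arrays, was higher in Wntlow cells by 1.72 as measured (limma adjusted p = 6.38e-05) and by at least 1.07 with values under the limit set to it.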
